A study of Rattus norvegicus with 6 samples.

Results

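The nuclear-encoded genes of the mitochondrial respiratory chain were examined in the renal cortex of rats dosed with monuron, against rats given its vehicle, corn oil. The set was a list of 46 named genes: 20 of complex I, 4 of complex II, 6 of complex III, the electron carrier Cycs, 8 of complex IV and 7 of complex V. Genes were taken by symbol from this list, which was drawn up with earlier results of these data known. A microarray probe was matched to 44 of them, out of 30229 genes tested on the arrays. No probe was matched to Ndufa8 or Cyc1, which are not analysed here.

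Both groups were male Sprague-Dawley rats of the Crl:CD(SD) stock, bought at 5 weeks of age and kept on a basal diet. One group received monuron, a phenylurea herbicide, at 200 mg/kg/day for 4 weeks, and the other received corn oil for 4 weeks. Each group gave 3 biological replicates, each on its own 1-colour Agilent array. All 3 monuron arrays lay on one slide and all 3 corn oil arrays on another, scanned on another day, so treatment cannot be told apart from slide or scan day.

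The respiratory chain sits in the inner mitochondrial membrane. Complexes I and II take electrons from NADH and succinate and pass them to ubiquinone, complex III passes them on to cytochrome c, and complex IV hands them to oxygen. Complexes I, III and IV pump protons as they do so, and complex V, the ATP synthase, uses the returning protons to make ATP. Proximal tubule cells, the main cell type of the renal cortex, depend on this pathway for the ATP that drives salt and solute reabsorption. In plants, phenylurea herbicides block electron transfer at photosystem II. The comparison asks whether the transcripts of the animal electron transport chain differed in level after repeated dosing.

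No member of the set was called different between the groups. Of the 44 measured genes, 0 were higher and 0 lower with monuron at an adjusted p of 0.05 (limma, Benjamini-Hochberg over all genes tested), where 0.949% of all genes were called higher and 0.414% lower. The smallest adjusted p among the members was 0.211. Without adjustment, 3 members had a p under 0.05 (6.82%), where 17.6% of all genes did. These were Ndufv2, Ndufa1 and Atp5b. The members split evenly, with 22 above 0 and 22 below 0 on the log2 scale of monuron minus corn oil. Their median log2 fold change was 0.0033, and the median of all genes tested was 0.024. Single members ran between -0.18 for Atp5b and 0.27 for Cox5a. In 30 of the 44 the log2 fold change was smaller than 0.1 in size.

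The intervals around these differences were narrow. The 95% interval, unadjusted, lay within a 1.5-fold change in either direction for 43 of the 44 members (97.7%), where it did so for 67.2% of all genes tested. It lay within 1.2-fold for 23 members (52.3%), against 17.8% of all genes. The one member whose interval reached past 1.5-fold was Cox5a. Most members are brightly detected, and bright probes vary less between arrays. The median residual standard deviation was 0.057 for the members and 0.14 for all genes on the log2 scale. Over the 2436 other genes whose levels fell in the central range of the members' levels, it was 0.069, and for 90.0% of those genes the interval lay within 1.5-fold.

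**Figure D1:**
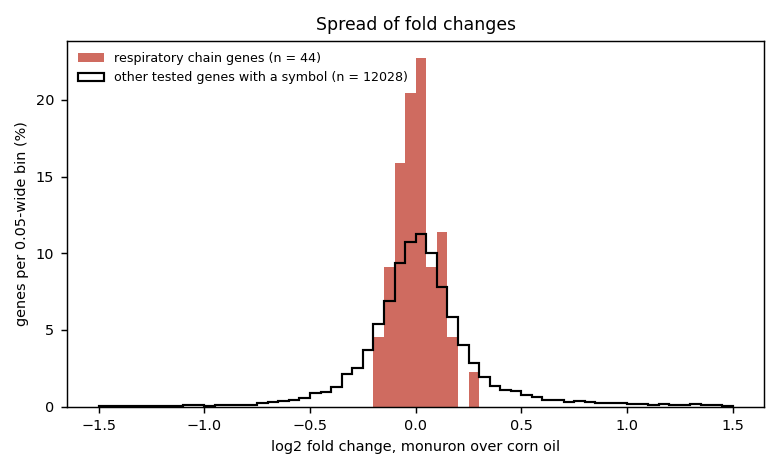
Distribution of log2 fold changes (monuron minus corn oil) of the 44 respiratory chain members and of the 12028 other tested genes with a symbol, each as a share of its own set in bins of 0.05 on the log2 scale. The members lie between -0.18 and 0.27, and 124 of the other genes lie beyond the axis limits of -1.5 and 1.5.

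Levels are given below as the spot signal divided by the 75th percentile signal of the same array. A value of 100 thus means a signal 100 times that percentile. Each value belongs to 1 probe, so levels of different genes are not set against each other.

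Complex I, the NADH:ubiquinone oxidoreductase, had 19 measured members. Their log2 fold changes ran from -0.17 to 0.18 with a median of -0.00058, 9 above 0 and 10 below 0. Groups did not overlap for 11 of the 44 members (25.0%), and for 25.7% of all genes. In complex I this held for 8 members (42.1%), 5 higher and 3 lower with monuron. This count was spread over both directions and none of the 8 passed the adjusted test.

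Ndufv2 encodes an iron-sulfur subunit of the NADH-oxidising module, next to the flavoprotein Ndufv1. Its level was 92.0, 94.7 and 95.4 on the monuron arrays, against 82.6, 82.2 and 84.7 on the corn oil arrays. All 3 monuron arrays lay above all 3 corn oil arrays, with a log2 fold change of 0.18 ± 0.058 (SE) and an adjusted p of 0.211 by limma. Ndufv1, which holds the flavin that accepts electrons from NADH, measured 86.7, 88.5 and 87.1 with monuron, against 81.7, 86.6 and 82.9 with corn oil. The monuron arrays were all higher, the lowest of them only just above the highest corn oil array, and the log2 fold change was 0.063. A second Ndufv1 probe ran the other way, at -0.15 with an unadjusted p of 0.0497 by limma, so the sign for this gene depends on the probe.

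Ndufa5 encodes an accessory subunit of the matrix arm. It measured 149.1, 149.9 and 158.5 on the monuron arrays, against 131.0, 136.0 and 142.1 on the corn oil arrays. The groups did not overlap, and the log2 fold change of 0.16 had an adjusted p of 0.288 by limma. Ndufa1, a small membrane-anchored accessory subunit needed for assembly of the complex, measured 108.7, 105.2 and 111.8 with monuron, against 124.0, 126.2 and 116.0 with corn oil. Here every monuron array was lower, by a log2 fold change of -0.17 ± 0.067 (SE, adjusted p = 0.276 by limma). Ndufb3, an accessory subunit of the membrane arm, measured 144.7, 125.9 and 147.0 with monuron, against 147.0, 162.2 and 152.0 with corn oil. Its lowest value was monuron replicate 2 and its highest corn oil replicate 2, and the groups met at 147.0 (log2 fold change -0.15, adjusted p = 0.447 by limma).

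The other 4 complex I members whose groups did not overlap were Ndufb8, Ndufs7, Ndufa9 and Ndufb6. Ndufb8, an accessory subunit of the membrane arm, measured 235.7, 234.1 and 244.2 with monuron, against 232.4, 222.4 and 209.2 with corn oil, a log2 fold change of 0.11. Ndufs7, which carries the iron-sulfur cluster next to the ubiquinone site, measured 83.3, 86.9 and 86.6 with monuron, against 75.2, 82.1 and 82.3 with corn oil (log2 fold change 0.10). Both were a little higher on every monuron array, and their adjusted p values were 0.476 and 0.495 by limma. Ndufa9, a matrix-arm accessory subunit, measured 16.9, 16.1 and 17.7 with monuron, against 17.8, 19.1 and 17.8 with corn oil (log2 fold change -0.11). Ndufb6, of the membrane arm, measured 85.8, 79.9 and 84.5 with monuron, against 86.2, 89.2 and 89.5 with corn oil (-0.083 on the log2 scale). Both were lower on every monuron array, with adjusted p values of 0.468 and 0.544 by limma.

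The remaining 10 complex I members overlapped between the groups on the probe used. They include the core matrix-arm subunit Ndufs1, which carries iron-sulfur clusters and measured 37.4, 35.6 and 37.1 with monuron, against 35.9, 37.6 and 35.3 with corn oil. Ndufs4, an accessory subunit whose loss impairs complex I in people and mice, measured 20.7, 19.9 and 21.5 with monuron, against 20.9, 21.0 and 20.1 with corn oil. On this probe its log2 fold change was -0.00058. A second Ndufs4 probe, also detected on all 6 arrays but much dimmer, was lower on every monuron array, with a log2 fold change of -0.21. Its unadjusted p was 0.0221 by limma (adjusted p = 0.207 over all probes). Its log2 levels lay between -1.57 and -1.23, against 4.31 to 4.43 for the probe used. By position in the complex, the 10 matrix-arm members had a median log2 fold change of 0.039, 6 of them above 0, and the 8 membrane-arm members a median of -0.037, 3 of them above 0. These groupings were drawn up after the values had been seen and were not tested. Ndufa4, which the list carries under its complex I name and which is now counted with complex IV, had a log2 fold change of -0.069.

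Complex II, succinate dehydrogenase, also belongs to the TCA cycle. Its 4 subunits had a median log2 fold change of 0.058, with 3 above 0. Sdhb, the iron-sulfur subunit, measured 47.5, 47.3 and 48.9 with monuron, against 43.8, 44.9 and 43.0 with corn oil. All monuron arrays were higher (log2 fold change 0.13 ± 0.059, SE, adjusted p = 0.342 by limma). Sdha, the flavoprotein that oxidises succinate, measured 133.5, 126.1 and 129.4 with monuron, against 131.1, 146.6 and 139.4 with corn oil. Sdha lay at -0.099 with groups that overlapped on this probe. A second Sdha probe was lower on every monuron array, at -0.20 with an unadjusted p of 0.0391 by limma, and a second Sdhb probe was higher on every monuron array, at 0.19 with an unadjusted p of 0.0183. The adjusted p over all probes was 0.258 for that Sdha probe and 0.193 for that Sdhb probe. Sdha and Sdhb lay on opposite sides of 0 with both of their probes. The membrane anchors Sdhc and Sdhd had log2 fold changes of 0.076 and 0.039.

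Complex III passes electrons from ubiquinol to cytochrome c. Its 5 measured members ran from -0.11 to 0.11 with a median of 0.030, 4 of them above 0, and groups overlapped for all 5 on the probe used. Uqcrb, the ubiquinone-binding subunit, measured 167.9, 160.5 and 164.9 with monuron, against 145.9, 161.7 and 150.2 with corn oil. Of the corn oil arrays, replicate 2 lay among the monuron values and the other two lay below them. Uqcrq, a small accessory subunit, measured 0.790, 0.790 and 0.698 with monuron, against 0.802, 0.878 and 0.775 with corn oil (log2 fold change -0.11). The second Uqcrq probe was not well above background on any array. The core proteins Uqcrc1 and Uqcrc2 and the Rieske iron-sulfur protein Uqcrfs1 had log2 fold changes of 0.042, 0.0071 and 0.030.

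Cycs, which encodes the somatic cytochrome c that shuttles electrons between complexes III and IV, measured 138.9, 155.4 and 146.5 with monuron, against 135.1, 139.7 and 133.5 with corn oil. Monuron replicates 2 and 3 lay above every corn oil array, and replicate 1 lay just under corn oil replicate 2. The log2 fold change was 0.11 with an adjusted p of 0.470 by limma, and the 5 Cycs probes ran from -0.08 to 0.12.

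Complex IV, cytochrome c oxidase, had 8 measured members with a median log2 fold change of -0.016, 3 above 0 and 5 below 0. Groups overlapped for all 8 on the probe used. Cox5a, a nuclear-encoded structural subunit, measured 104.8, 120.4 and 125.4 with monuron, against 115.5, 83.3 and 93.6 with corn oil. Its corn oil values were spread widely, with replicate 1 among the monuron values. The log2 fold change of 0.27 ± 0.14 (SE, adjusted p = 0.388 by limma) had an interval of -0.08 to 0.62, the widest of the members. Without corn oil replicate 2 it was 0.16, and over all arrays left out in turn it lay between 0.16 and 0.40. Its probes gave 0.26 and 0.27. Cox5b, which binds zinc on the matrix side, measured 219.0, 211.7 and 227.7 with monuron, against 216.0, 211.6 and 213.6 with corn oil. Cox6a1, the form of subunit VIa found in non-muscle tissue, measured 437.9, 426.8 and 407.6 with monuron, against 411.2, 477.0 and 449.3 with corn oil. Both genes overlapped between the groups on these probes, with log2 fold changes of 0.038 for Cox5b and -0.070 for Cox6a1. The other Cox5b probes differed: one gave -0.0092, and one was higher on every monuron array, at 0.17 with an unadjusted p of 0.0362 by limma (adjusted p = 0.251 over all probes). The other 5 members, Cox4i1, Cox6b1, Cox6c, Cox7a2 and Cox7b, ran from -0.055 to 0.059.

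Complex V had 7 measured members with a median log2 fold change of -0.029, 2 above 0 and 5 below 0. Atp5b, the catalytic beta subunit of the F1 head, measured 63.4, 61.3 and 65.4 with monuron, against 72.3, 71.4 and 71.1 with corn oil. Every monuron array was lower, by a log2 fold change of -0.18 ± 0.060 (SE, adjusted p = 0.224 by limma). Atp5o, the subunit that ties the F1 head to the peripheral stalk, measured 238.6, 227.3 and 257.1 with monuron, against 262.4, 266.9 and 259.4 with corn oil. It too was lower on all monuron arrays, at -0.13 with an adjusted p of 0.410 by limma. Atp5a1, the alpha subunit, measured 472.5, 472.9 and 398.2 with monuron, against 417.8, 517.6 and 503.5 with corn oil (log2 fold change -0.097). The groups overlapped on this probe. A second Atp5a1 probe had the lowest log2 fold change of any member probe, -0.23, with an adjusted p of 0.159 by limma over all probes. The 4 members in the F1 head and central stalk (Atp5a1, Atp5b, Atp5c1 and Atp5d) had values from -0.18 to -0.0065, with a median of -0.063. This grouping, too, was drawn up after the values had been seen. Of these 4, 0 passed the test. Atp5f1e, another subunit of this part that is not a member, went the other way. It was higher on every monuron array, at 0.16 with an adjusted p of 0.243 by limma. The members of the membrane part and peripheral stalk that lay above 0 were Atp5f1 at 0.030 and Atp5g1 at 0.045.

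**Figure D2:**
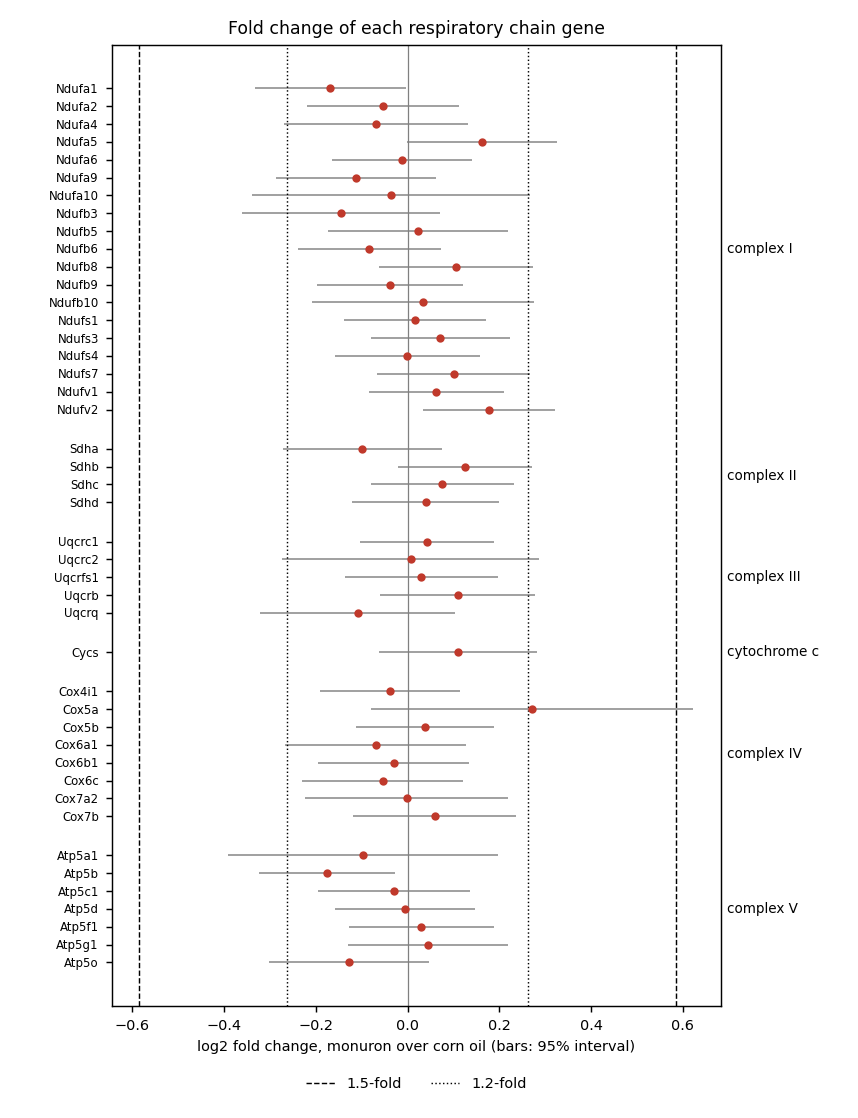
Log2 fold change (monuron minus corn oil) of each of the 44 members, ordered by complex, with its unadjusted 95% interval as a bar. Points lie on both sides of 0 in each complex with more than 1 member, and the interval reaches past a 1.5-fold change (dashed lines) for Cox5a alone. Dotted lines mark a 1.2-fold change.

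**Figure D3:**
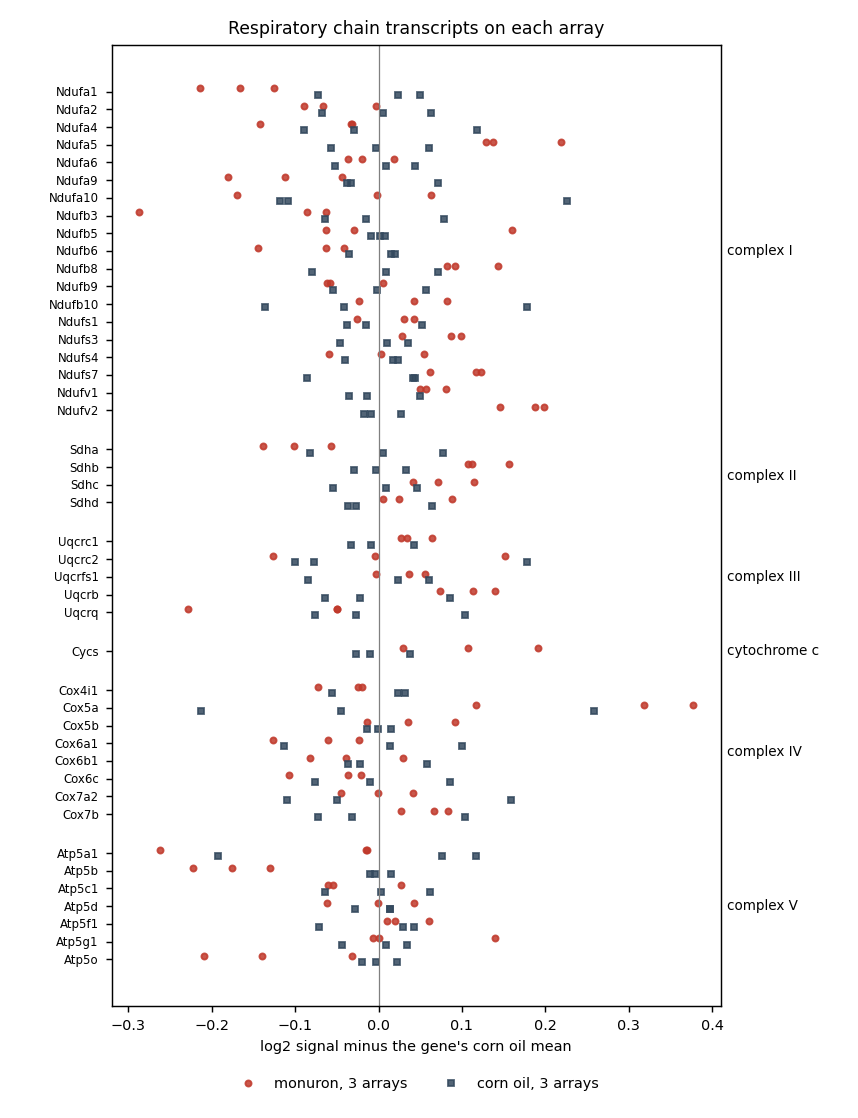
Log2 level of each of the 44 members on every array, minus the gene's mean over the 3 corn oil arrays, with monuron arrays as circles and corn oil arrays as squares. The groups lie apart for 11 members, 6 with the monuron arrays higher and 5 with them lower, and overlap for the rest.

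Members with several probes gave a second look at the same transcripts. The 44 members had 73 probes, of which 72 passed the detection filter. Fitted over all 41125 passing probes, 0 of the 72 were called by limma, and 10 (13.9%) had an unadjusted p under 0.05, where 17.5% of all probes did. Of the 10, 3 were higher and 7 lower with monuron, and over all probes 4289 were higher and 2917 lower. Among the 20 members with several passing probes, 9 had probes on both sides of 0. The distance between the highest and lowest log2 fold change of a member's probes had a median of 0.098, and its largest value was 0.22, for Ndufv1, with 0.21 for Ndufs4. The median size of the members' own log2 fold changes, with 1 probe each, was 0.061, and that of all genes 0.14. In the RefSeq gene table, Uqcrb, Cox6b1 and Ndufa10 are also older names of a related copy of each gene. Probes were matched by accession, so the older names did not enter the match. Whether these probes also detect the related copy was not tested.

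The members also varied together between arrays of one group. Relative to each gene's mean over the 6 arrays, the members' median log2 deviation was 0.002, -0.011 and 0.025 on monuron replicates 1 to 3. On corn oil replicates 1 to 3 it was -0.046, 0.048 and -0.021. Corn oil replicate 2 was the highest corn oil array for 34 of the 44 members (77.3%), and for 30.5% of all genes tested. It was also the array with the fewest probes well above background, 60.8%, and its part in this result was not tested. Without corn oil replicate 2 the members' median log2 fold change was 0.029, and without corn oil replicate 1 it was -0.026, with 0 members called in either case.

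**Figure D4:**
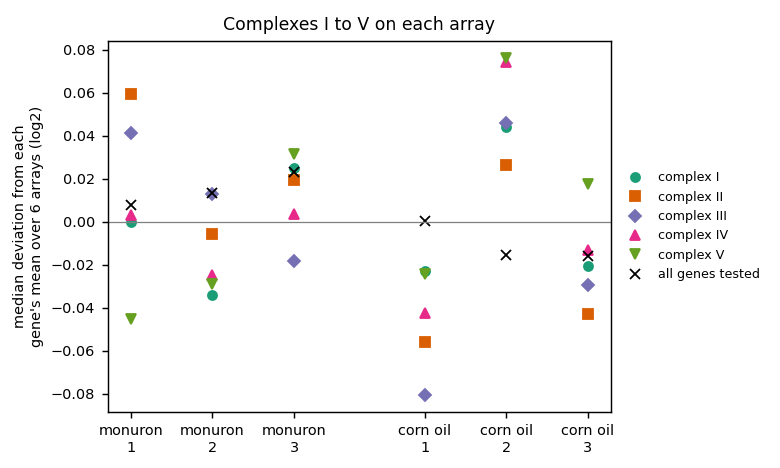
Median log2 deviation of each complex's measured members from their mean over the 6 arrays, for each monuron and corn oil array. Crosses are the medians of all genes tested. Corn oil replicate 2 lies above the other corn oil arrays in each of the complexes, and the groups overlap in each.

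The scaling of the arrays sets the zero of these differences. Dividing by the 75th percentile assumes that this percentile was alike in both groups. Without scaling the median of all genes was 0.11 on the log2 scale and that of the members 0.089. Scaled on the spike-in control RNA, which is added in a fixed amount before labelling, the median of all genes was -0.48 and that of the members -0.50. On that scale 43 of the 44 members were called lower with monuron, as were 68.3% of all genes. Both scalings shift every gene of an array by the same amount. The members' place relative to the median of all genes, -0.021 on both scales, is thus fixed by arithmetic. These array data therefore give the respiratory chain transcripts relative to the other transcripts of the cortex, not an amount per cell.

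The tissue label was checked against marker genes. All 12 proximal tubule markers were measured, with summed levels of 2458 to 2722 on the monuron arrays, against 2732 to 3217 on the corn oil arrays. None of the 12 was above 0, and 0 were called by limma with 6 at an unadjusted p under 0.05 and a median log2 fold change of -0.25. In bulk tissue, fewer cells of a type and less RNA per cell cannot be told apart. Of the 8 measured red cell markers, 5 were called higher with monuron, with summed levels of 1521 to 1635 with monuron, against 647 to 889 with corn oil. Hepatocyte markers summed to 29.0 to 63.5 with monuron, against 20.6 to 41.6 with corn oil, 11 of 12 above 0 and 0 called. Immune cell markers summed to 84.7 to 114 with monuron, against 93.6 to 140 with corn oil, with 0 of 6 above 0 and 0 called. Summed levels of the thick ascending limb and distal tubule (318 to 449 with monuron, against 346 to 463 with corn oil) and of the collecting duct (274 to 328 with monuron, against 257 to 327 with corn oil) overlapped between the groups. Podocyte and glomerular markers summed to 61.0 to 67.4 with monuron, against 69.6 to 75.3 with corn oil, with 0 of 8 called. Slc4a1 is in both the red cell and the collecting duct lists, at a log2 fold change of 0.94 (adjusted p = 0.142 by limma). Of the 10 collecting duct markers 4 lay above 0, Slc4a1 among them, and 0 were called. What part any of these cell types has in the respiratory chain values was not tested.

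The promoters of the members are shown because these genes share a small set of known regulators. NRF1 and GABP (also called NRF2) bind the promoters of many nuclear-encoded respiratory chain genes, YY1 acts at several of them, and the estrogen-related receptors (ERR) act with the coactivator Ppargc1a. RefSeq promoter windows (build GRCr8), of 250 bases before and 50 after the gene start, were matched for 40 members. The windows were searched on both strands for GCGCA and GCGC with any 1 base between them (NRF1), CCGGAAG (GABP), AAGATGGCG (YY1) and AAGGTCA (ERR). GABP letters occurred in 12 members (30%), and in 9.22% of all 27457 promoters. YY1 letters occurred in 7 members (17.5%, against 1.93% of all promoters), NRF1 letters in 5 (12.5%, against 4.71%) and ERR letters in 3 (7.5%, against 4.37%). At least 1 of the 4 occurred in 21 members (52.5%) and in 18.3% of all promoters. The members' windows were also richer in G and C, with a median of 58.3% against 52.3% over all promoters, and held a median of 21 CpG dinucleotides against 7.

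Both kinds of member, with and without a match, centred near 0 between the groups. The median log2 fold change was -0.0017 for the 21 members with a match and 0.030 for the 19 without. Shown first are the promoters of the 3 members with an unadjusted p under 0.05, then 1 with an NRF1 match and 1 with a YY1 match. Ndufa1 lies at chrX:121293506-121293805, minus strand, Ndufv2 at chr9:113157471-113157770, minus strand, Atp5b at chr7:1099808-1100107, plus strand, Atp5o at chr11:44657434-44657733, minus strand, and Ndufb8 at chr1:253362887-253363186, minus strand. Each is written 5′ to 3′ on the strand of its gene, with matches in capitals.
Ndufa1: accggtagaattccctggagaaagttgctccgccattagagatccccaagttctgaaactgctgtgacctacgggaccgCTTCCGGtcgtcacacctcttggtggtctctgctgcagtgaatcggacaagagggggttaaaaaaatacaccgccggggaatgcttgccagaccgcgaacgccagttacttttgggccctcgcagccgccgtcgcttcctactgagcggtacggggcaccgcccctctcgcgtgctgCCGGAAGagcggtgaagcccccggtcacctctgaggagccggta
Ndufv2: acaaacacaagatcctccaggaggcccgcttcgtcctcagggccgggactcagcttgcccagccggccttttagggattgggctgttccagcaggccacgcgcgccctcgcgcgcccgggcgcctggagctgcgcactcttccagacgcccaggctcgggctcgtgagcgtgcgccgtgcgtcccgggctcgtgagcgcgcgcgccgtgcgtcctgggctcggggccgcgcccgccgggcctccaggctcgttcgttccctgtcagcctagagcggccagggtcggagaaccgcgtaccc
Atp5b: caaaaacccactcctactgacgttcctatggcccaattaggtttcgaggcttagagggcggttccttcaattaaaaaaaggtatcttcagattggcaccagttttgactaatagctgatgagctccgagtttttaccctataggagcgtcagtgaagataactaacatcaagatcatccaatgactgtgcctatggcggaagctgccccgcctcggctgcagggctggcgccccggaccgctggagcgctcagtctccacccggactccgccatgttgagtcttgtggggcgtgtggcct
Atp5o: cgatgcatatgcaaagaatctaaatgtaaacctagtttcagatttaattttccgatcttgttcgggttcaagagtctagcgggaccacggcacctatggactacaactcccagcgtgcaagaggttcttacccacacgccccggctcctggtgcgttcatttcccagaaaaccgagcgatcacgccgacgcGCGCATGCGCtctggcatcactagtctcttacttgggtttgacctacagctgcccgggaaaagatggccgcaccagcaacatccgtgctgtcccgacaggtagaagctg
Ndufb8: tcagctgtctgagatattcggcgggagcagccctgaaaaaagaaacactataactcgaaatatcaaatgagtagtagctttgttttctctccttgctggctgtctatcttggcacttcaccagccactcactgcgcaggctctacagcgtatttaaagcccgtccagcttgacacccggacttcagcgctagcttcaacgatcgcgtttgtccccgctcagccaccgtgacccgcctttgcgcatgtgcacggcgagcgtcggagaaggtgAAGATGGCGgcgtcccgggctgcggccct
Ndufa1, below 0, held the GABP letters at a pair of places, once on each strand. Ndufv2, above 0, and Atp5b, below 0, held none of the 4 motifs in this window. Atp5o, below 0, held the NRF1 letters, and Ndufb8, above 0, the YY1 letters. These matches are a description of the letters and say nothing of binding in these kidneys.

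The genes around the respiratory chain were read from the same fit. Of 30 measured subunits outside the 46, such as further accessory subunits of complexes I, IV and V, 0 were called higher and 0 lower, with a median log2 fold change of 0.028 and 5 at an unadjusted p under 0.05 (limma). Atp5if1, the inhibitor that stops ATP synthase from running backwards, measured 81.7, 88.0 and 88.3 with monuron, against 67.7, 72.2 and 70.2 with corn oil. All monuron arrays were above all corn oil arrays, with a log2 fold change of 0.30 and an adjusted p of 0.112 by limma. Cox7a2l, which helps join complexes III and IV into supercomplexes, measured 34.4, 34.4 and 32.9 with monuron, against 28.8, 28.7 and 27.7 with corn oil (log2 fold change 0.25, adjusted p = 0.120). Cox7c, a small complex IV subunit, measured 7.89, 9.20 and 8.48 with monuron, against 7.18, 6.95 and 6.61 with corn oil (log2 fold change 0.30, adjusted p = 0.159). None of these 3 genes passed the adjusted test, though their groups did not overlap. Groups did not overlap for 10 of the 30 (33.3%), 8 higher and 2 lower with monuron, and for 25.7% of all genes. Also at an unadjusted p under 0.05 by limma were Atp5f1e, higher at 0.16, and Ndufs8, a complex I subunit, lower at -0.15. The 13 subunits encoded by mitochondrial DNA are not analysed here.

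Of 36 measured assembly factors of the chain, 0 were called higher and 1 was called lower by limma. That gene was Nubpl, which delivers iron-sulfur clusters to complex I during its assembly. It measured 1.77, 1.69 and 1.58 with monuron, against 2.56, 2.69 and 2.45 with corn oil. Nubpl was 1.53-fold lower with monuron, at a log2 fold change of -0.61 ± 0.076 (SE, adjusted p = 0.0313 by limma), and its probes gave -0.61 and -0.63. With any 1 of the 6 arrays left out the fold change lay between -0.65 and -0.57 and the adjusted p between 0.0836 and 0.125, so the call was lost each time. The list's median was 0.055, and 8 of its 36 genes (22.2%) had an unadjusted p under 0.05, where 17.6% of all genes did. Ndufaf1, another complex I assembly factor, measured 0.793, 0.789 and 0.840 with monuron, against 0.643, 0.606 and 0.664 with corn oil (log2 fold change 0.34, adjusted p = 0.0918). Timmdc1 went the other way, lower on every monuron array (log2 fold change -0.35, adjusted p = 0.117 by limma). Of the 8 genes at an unadjusted p under 0.05, 5 were higher and 3 lower with monuron.

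The TCA cycle supplies NADH and succinate to complexes I and II. Of its 17 measured genes 0 were called higher and 1 was called lower, and the list's median was -0.019. The gene called lower was Suclg2, the GDP-forming beta subunit of succinyl-CoA ligase, which makes succinate. It measured 27.1, 28.0 and 26.2 with monuron, against 39.9, 40.4 and 42.1 with corn oil. Suclg2 was 1.51-fold lower with monuron, at -0.59 ± 0.063 on the log2 scale (SE, adjusted p = 0.0214 by limma), and its probes gave -0.59 and -0.51. With any 1 array left out its fold change lay between -0.62 and -0.57 and its adjusted p between 0.0796 and 0.0947. Cs, which encodes the citrate synthase that opens the cycle, measured 11.5, 11.2 and 11.8 with monuron, against 9.11, 9.65 and 9.20 with corn oil. All monuron arrays were higher for Cs, with a log2 fold change of 0.30 and an adjusted p of 0.0962 by limma.

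Regulators of mitochondrial biogenesis and mtDNA expression had 19 measured genes, 0 called higher and 0 called lower (limma). At an unadjusted p under 0.05 were 2 of them (10.5%), where 17.6% of all genes were. These were Tfb1m, higher on every monuron array at 0.36, and Polg2, lower on every monuron array at -0.36. Their adjusted p values were 0.117 and 0.216 by limma. Ppargc1a, the coactivator that raises mitochondrial biogenesis, measured 0.782, 0.684 and 0.802 with monuron, against 0.645, 0.695 and 0.672 with corn oil. One monuron array lay within the corn oil values, and the log2 fold change of 0.17 had an adjusted p of 0.362 by limma. Nrf1, the factor whose motif was searched above, had a log2 fold change of -0.14, Tfam, which packages and transcribes mtDNA, one of 0.027, and Esrra, an estrogen-related receptor, one of -0.0082. The 14 measured carriers, porins and uncoupling proteins had 0 calls in either direction and 2 genes at an unadjusted p under 0.05 (limma). These were Slc25a10, the dicarboxylate carrier, and Vdac2, a porin of the outer membrane. Slc25a10 measured 33.2, 33.3 and 28.7 with monuron, against 37.7, 40.0 and 41.0 with corn oil (log2 fold change -0.32, adjusted p = 0.151). Vdac2 measured 9.19, 9.24 and 9.90 with monuron, against 8.55, 8.28 and 7.97 with corn oil (log2 fold change 0.19, adjusted p = 0.232). Slc25a10 was lower and Vdac2 higher on every monuron array. Slc25a4, the ADP/ATP exchanger that feeds complex V, measured 53.4, 53.3 and 52.4 with monuron, against 49.7, 47.8 and 45.4 with corn oil (log2 fold change 0.16, adjusted p = 0.286). Every monuron array was above every corn oil array for this gene. The 16 measured genes of coenzyme Q synthesis and of other enzymes that pass electrons to it had 0 calls by limma and 3 at an unadjusted p under 0.05. The lowest of those named were Pdss2, which builds the ubiquinone tail, at -0.38, and Coq8a, a kinase-like protein of ubiquinone synthesis, at -0.33. Prodh, the proline dehydrogenase that feeds electrons to the chain, had the highest value, 0.48, with an adjusted p of 0.119 by limma.

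**Figure D5:**
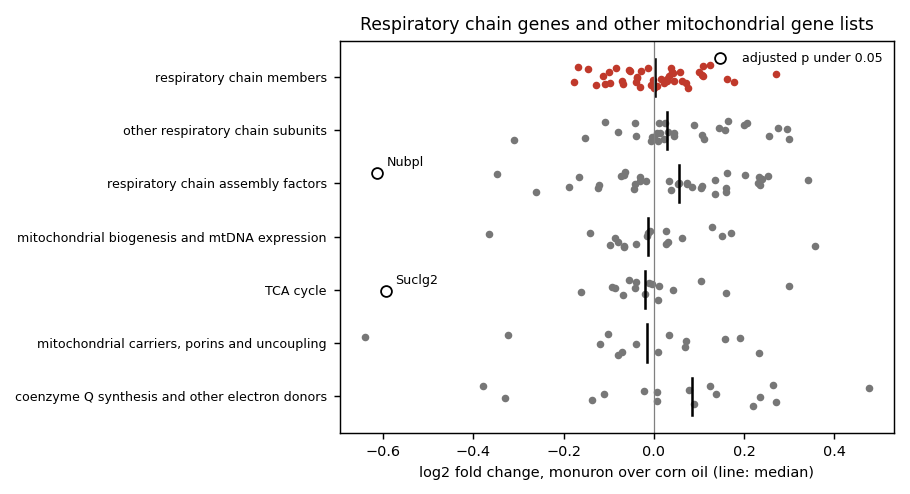
Log2 fold change (monuron minus corn oil) of every measured gene in the respiratory chain set and in the lists of related mitochondrial genes, 1 row per list. Points are genes, short lines are list medians, and open circles are the genes called by limma at an adjusted p of 0.05, which are Nubpl and Suclg2, both below 0.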

How the data were processed

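Renal cortex RNA labelled with Cy3 was measured on 1-colour arrays in 2 groups of 3 rats. The deposited scanner files hold linear spot intensity. The submitters' processing notes name Agilent Feature Extraction 10.7 as the tool. A deposited value table by the authors, used as an alternative, gives each signal as a ratio to the array's 75th percentile. The number of arrays limits the precision.

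Computed here were log2 processed signals minus the array's 75th percentile over 61537 non-control probes. Control and outlier spots were left out, and 0 spots were saturated. A probe was used if each of the 3 arrays of a group, or of both, had it well above background (41125 probes). Accessions were matched to RefSeq symbols (GRCr8), which named 28206 probes (45.8%). The probe with the highest mean over 6 arrays stood for each gene. Tests were two-sided in limma 3.58.1 under R 4.3.3 (lmFit and eBayes, Benjamini-Hochberg over 30229 genes, threshold 0.05), tested on simulated data. Levels are ratios to the 75th percentile.

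The members and lists were chosen with earlier results of these data known. Members given array by array are any called, the 2 with the smallest p per complex, Cycs, the 3 highest and 3 lowest fold changes, and any whose probes disagree in sign with 1 at an unadjusted p under 0.05; some others were added after their values were seen. From other lists, called genes and some of the 4 with the smallest p are named, besides Ppargc1a, Esrra, Nrf1, Tfam, Slc25a4 and Cs in every case. Ndufs8 was added after its value was seen. The files hold no mean spot signal, so normexp used the median signal. Alternatives were other scalings and background correction, the authors' table, detection filters, probe summaries, eBayes settings, array weights, a replicate block and leaving out each array.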

Additional observations from a re-analysis of the deposited data

How the results depend on the processing

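The count of members called was 0 in each direction under every alternative run except scaling on spike-in controls (7 probes, 245 spots, shifted by 0.59 between groups), where 43 were lower, Cox5a being the exception. The replicate number is shared by the groups, and the design text names no pairing of the samples. Correlations of same-numbered deviations were -0.08, 0.11 and -0.17. With no differently numbered arrays set beside them, they cannot decide whether samples were paired. With the replicate number as a block, 0 genes of all 30229 were called by limma, against 287 higher and 125 lower without it, and 0 members. Without scaling, the members' median was 0.089 and those of complexes I to V were 0.086, 0.14, 0.12, 0.070 and 0.057. On spike-in scaling they were -0.50, and -0.50, -0.45, -0.47, -0.52 and -0.53. With normexp, complexes I, II and III had medians of -0.040, -0.015 and -0.027. Complex I had -0.038 when probes of each gene were averaged and -0.036 when every probe was counted. Leaving out 1 array gave members' medians of -0.026 to 0.029.

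Of the genes in the other mitochondrial lists, 2 were called lower and 0 higher. The lower count was 1 without scaling (Nubpl lost, adjusted p = 0.0709), 115 on spike-in scaling, 0 without a detection filter, 0 with a replicate block, 4 when every probe was counted (both probes of Nubpl and Suclg2), and 0 to 0 without any 1 array. The higher count was 2 with normexp and 3 with eBayes trend and robust. On spike-in scaling these signs turned: Ndufv2 -0.33, Sdhb -0.38, Uqcrb -0.39, Cox5a -0.23, Cycs -0.39, Ndufa5 -0.34, Cox5b -0.47, Ndufv1 -0.44, Atp5if1 -0.21, Cox7a2l -0.25, Ndufaf1 -0.16, Tfb1m -0.15, Cs -0.20, Vdac2 -0.31, Ppargc1a -0.33, Tfam -0.48 and Slc25a4 -0.35. Without scaling, Cox6a1 had 0.016 and Esrra 0.078. With normexp Uqcrb had -0.014, Cox5b -0.034 and Tfam -0.044. The mean of probes gave Ndufv1 -0.045, and without 1 monuron replicate Esrra had -0.028 to 0.029. The causes were not tested.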
